A study of Mus musculus with 12 samples.

Results

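Cebpg knockdown was examined here in C2C12 cells under endoplasmic reticulum (ER) stress, by comparing 3 libraries of knockdown cells with 3 of control cells, 6 of the 12 libraries of the series, over all genes. C2C12 is a mouse myoblast line that can fuse into muscle fibres. Both groups had thapsigargin for 6 h, and the other 6 libraries, with DMSO in its place, serve only to ask whether the knockdown effect differed with stress. The knockdown libraries all carry the title Sh2, and the construct in the control cells was not given in the labels. Loss of Cebpg, an off-target effect and another lasting difference between the cell populations cannot be told apart. The growth protocol names HeLa whereas the source and cell line fields name C2C12. The labels do not say whether replicates came from separate cultures. A p-value here therefore reflects the spread among libraries, which may be technical.

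Thapsigargin blocks the SERCA pump that fills the ER with calcium, and proteins in the emptied ER misfold. The sensor PERK then phosphorylates the initiation factor eIF2 alpha, which slows most translation but favours that of ATF4, the transcription factor at the centre of the integrated stress response (ISR). ATF4 binds DNA as a pair with other basic leucine zipper (bZIP) proteins, among them C/EBP gamma, the product of Cebpg, at composite C/EBP-ATF elements near genes of amino acid supply, tRNA charging and stress control. The other arms of the unfolded protein response, IRE1 with XBP1 and ATF6, raise ER chaperones and the machinery that removes misfolded proteins.

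Control libraries held 32.08, 47.72 and 36.72 M (1e6) gene reads and knockdown libraries 31.99, 29.42 and 31.73 M. The 10 most abundant genes took 6.23% to 6.30% of reads in control libraries and 5.02% to 5.21% in knockdown libraries, and the scaling factors were 0.967 to 0.970 and 1.05 to 1.07. Between replicates of a group the chi-square per gene was 2.51 to 7.47 in the thapsigargin groups and 3.6 to 9.83 in the DMSO groups, above the value near 1 of counting alone. Levels below are CPM (read counts per 1e6 reads of the scaled library size), a scale that does not correct for gene length and so compares libraries, not genes. Among myoblast markers Myod1, a master regulator of the muscle lineage, stood at 105, 107 and 109 CPM in the controls and 115, 114 and 101 CPM after knockdown, and all 10 markers of that list were above 1 CPM in at least 1 library. Of markers of other cell types, 7 of 10 leukocyte, 4 of 10 epithelial, 3 of 8 endothelial, 6 of 8 adipocyte and 3 of 8 neuronal genes were under 1 CPM in all 6 libraries. The summed levels of the full lists in control and knockdown libraries were 23.1 to 25.9 and 19.8 to 24.2 CPM for leukocyte, 39.0 to 45.1 and 59.9 to 64.1 for epithelial, 27.5 to 32.4 and 18.4 to 21.1 for endothelial, 177.9 to 183.9 and 119.7 to 125.2 for adipocyte and 137.7 to 149 and 193 to 211.6 CPM for neuronal markers. The defining genes Ptprc, Epcam, Cldn5, Adipoq and Rbfox3 were all in the group under 1 CPM. Of markers that could be tested, 6 of 8 epithelial ones rose and 1 fell (median 1.11), 4 of 6 neuronal ones rose and 1 fell (median 0.50), 2 of 5 endothelial ones rose and 1 fell, and 1 of 3 rose and 1 of 3 fell among both leukocyte and adipocyte markers. The keratin genes Krt14 and Krt19 rose from 16.7 ± 1.41 to 23.6 ± 2.23 CPM and from 11.8 ± 0.767 to 22.6 ± 2.08 CPM, and the neurofilament gene Nefm from 30.9 ± 2.57 to 65.8 ± 5.64 CPM. Tek, an endothelial receptor gene, fell from 22.7 ± 2.09 to 11.4 ± 1.30 CPM. In the adipocyte list Lpl, the lipoprotein lipase gene, fell from 126 ± 0.421 to 27.4 ± 1.83 CPM, while Pparg, a nuclear receptor gene, rose from 53.9 ± 3.42 to 94.8 ± 3.20 CPM. The part of these markers, and of the shares and factors above, in the results was not tested.

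Cebpg (ENSMUSG00000056216, chromosome 7, 35046422 to 35056573 in GRCm38) was low in every knockdown library. Control libraries held 211, 219 and 216 CPM and knockdown libraries 6.12, 5.58 and 5.29 CPM. The knockdown mean was 2.62% of the control mean (log2 change -5.25, SE 0.08, adjusted p = 2.23e-30), so the libraries match their labels. In DMSO the fall was 3.60 (log2), from a control level of 54.6 ± 5.21 CPM, and the difference between the treatments was -1.66 (SE 0.13, adjusted p = 7.07e-12).

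Under thapsigargin the knockdown changed 9010 of 15828 genes tested (56.9%) at an adjusted p under 0.05 in edgeR's quasi-likelihood test with Benjamini-Hochberg adjustment, of which 4495 fell (28.4%) and 4515 rose (28.5%). A change by at least 1 in log2, that is to at most 50% or at least 200% of the control level, was called downwards for 943 genes (5.96%) and upwards for 804 (5.08%). The median over all genes tested was 0.02 (log2), with quartiles of -0.31 and 0.32. Since more than 50% of genes passed, a gene's call alone says little, and sizes are given throughout. With libraries scaled by their totals alone the median moved to 0.15 and the calls to 6321 up and 3164 down. Each log2 change below is therefore relative to the scaling used, not an absolute amount. Among genes named below that did not pass, Eif2s1, Nqo1, Gpx4, Slc7a6, Qars, Ufd1, Rplp0, Btg2, Myod1, Cdh15 and Ptgs2 rose with that scaling, as did Sar1b and Hsp90ab1.

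The largest falls included genes that were well expressed in stressed control cells. Car6 (ENSMUSG00000028972, chromosome 4, 150187015 to 150201332) encodes a carbonic anhydrase. Its level was 128, 128 and 138 CPM in the controls and 0.676, 0.616 and 1.06 CPM after knockdown (-7.37, SE 0.11, adjusted p = 2.69e-32). The haptoglobin gene Hp, an acute phase protein that binds free haemoglobin, had 18.4, 18.6 and 17.2 CPM in the controls and 0.382, 0.195 and 0.441 CPM after knockdown (-5.70). In DMSO it changed by -6.21, from a higher control level of 51.9 ± 3.18 CPM. Igfbp5, which encodes a secreted binding protein of insulin-like growth factors, had 1574, 1695 and 1605 CPM in the controls and 87.2, 52.9 and 71.9 CPM after knockdown (-4.52, SE 0.22). In none of these genes did the groups overlap, which the rule for naming them required. Cth, the enzyme that makes cysteine from cystathionine, had 99, 97.9 and 103 CPM in the controls and 8.26, 7.04 and 6.76 CPM after knockdown (-3.76, SE 0.07, adjusted p = 9.76e-29). Avil, which encodes the actin-binding protein advillin, fell from 67.5 ± 7.63 to 1.84 ± 0.446 CPM, and its exons overlap those of Tsfm, so its read count is uncertain. Others of the 12 largest falls were Dnmt3l (-5.16), a cofactor of DNA methyltransferases whose exons overlap Aire, Pi16 (-4.97), Cdsn (-4.06), which encodes corneodesmosin, the potassium channel gene Kcnma1 (-4.05), Fibin (-3.71) and Sspo (-3.65). The difference from the effect in DMSO did not pass for Hp, Dnmt3l and Sspo, and was lower under thapsigargin for the others of the 12.

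Among the largest rises were genes of the muscle cytoskeleton and members of families with close copies. Acta1, skeletal muscle actin, rose from 5.12, 4.66 and 5.23 CPM in control libraries to 39.4, 51.6 and 48.5 CPM in knockdown libraries (3.22, SE 0.18, adjusted p = 8.27e-08). Cnn1, the smooth muscle protein calponin, rose from 5.74 ± 1.10 to 30.3 ± 2.92 CPM. Edn1, the precursor of the vasoconstrictor endothelin, rose from 2.73 ± 0.287 to 13.9 ± 2.29 CPM. Fat4, a large cadherin, rose by 2.53, the matricellular gene Tinagl1 by 2.47 and the organic anion transporter gene Slco4a1 by 2.36 (log2). 1700012B09Rik rose by 3.37. Lce1g (4.46), Prl2c3 (3.29), Prl2c2 (3.10), Serpinb9e (2.81) and the histone gene Hist1h3b (2.50) complete the 12, and all belong to families with close copies, so their read assignment is uncertain. None of the 12 rises passed the test of a larger effect under thapsigargin than in DMSO except Fat4 (difference 1.10, adjusted p = 1.91e-06). Tinagl1 (-1.16), Serpinb9e (-1.07) and Prl2c2 (-0.30) rose less under thapsigargin than in DMSO.

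**Figure D1:**
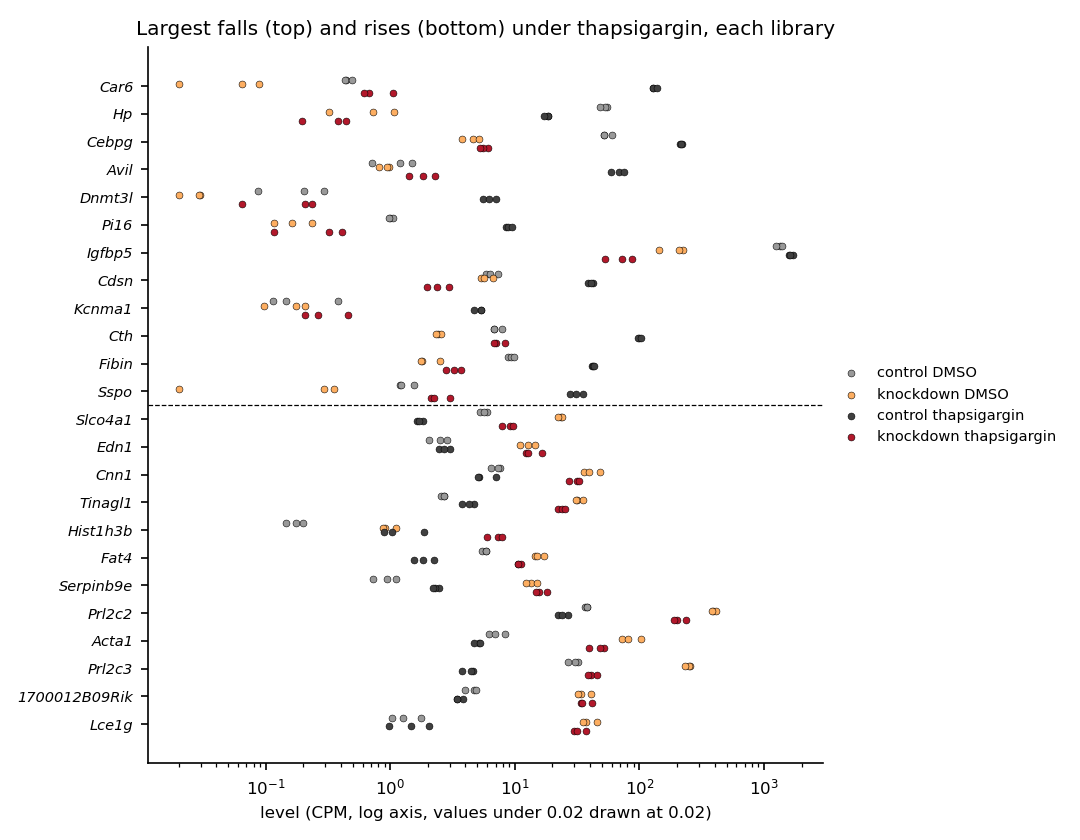
Level in each library (x axis, CPM, log scale, values under 0.02 drawn at 0.02) of the 12 genes that fell most (above the dashed line) and the 12 that rose most (below it) under thapsigargin. Colours mark the 4 groups, 3 points each. Control thapsigargin points (dark grey) of Car6 sit at 128 to 138 CPM, far to the right of the knockdown thapsigargin points (red) at 0.616 to 1.06 CPM, and the risen genes show the opposite order.

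Of 22 ISR transcription factors and effectors, 21 fell and 1 rose, with a median log2 change of -0.79 beside 0.02 over all genes tested. Atf4 itself had 1754, 1779.5 and 1743 CPM in the controls and 1253, 1287 and 1258 CPM after knockdown (-0.47, SE 0.04, adjusted p = 4.37e-12). The knockdown mean was 72% of the control mean. Ddit3, which encodes CHOP, a transcription factor linked to stress-induced cell death, had 398, 411 and 408 CPM in the controls and 181, 198 and 200.4 CPM after knockdown (-1.07, SE 0.05). Exons of Ddit3 overlap those of Mars, which rose by 0.15. Ppp1r15a, the GADD34 subunit that directs phosphatase to eIF2 alpha and so ends the translational arrest, had 609.9, 594 and 713 CPM in the controls and 186, 184 and 184 CPM after knockdown (-1.79, SE 0.06, adjusted p = 1.96e-20). The groups of these genes lay far apart against the spread of their libraries.

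Ddit4, an inhibitor of the growth kinase complex mTORC1, fell from 274 ± 14.5 to 78.4 ± 7.32 CPM (-1.80). Sesn2, another stress-induced inhibitor of that pathway, fell from 184 ± 12.5 to 76.9 ± 4.28 CPM (-1.26). Trib3, a pseudokinase induced by ATF4 and CHOP, had 385, 395 and 393 CPM in the controls and 168, 159.9 and 173 CPM after knockdown (-1.23). Chac1, which breaks down glutathione, fell from 471 ± 11.4 to 262 ± 7.92 CPM. Fgf21, a metabolic hormone, had 28.2, 31.6 and 32.2 CPM in the controls and 4.67, 4.25 and 5.91 CPM after knockdown (-2.63, SE 0.12), Gdf15, another stress hormone, fell by 0.73 (log2) and Vegfa, the angiogenic growth factor, by 0.83. Vldlr, a lipoprotein receptor, fell from 4.36 ± 0.719 to 1.35 ± 0.168 CPM. Atf3, a bZIP repressor, fell from 227 ± 4.40 to 146 ± 2.21 CPM, Atf5 from 479 ± 21.1 to 286 ± 15.9 CPM and Nupr1, a small chromatin-associated stress protein, from 184 ± 0.594 to 144 ± 7.28 CPM. Eif4ebp1, a translational repressor, fell by 0.62 and Ndrg1 by 1.09 (log2). The member that rose was Tnfrsf10b, a death receptor that p53 also induces, at 48.3, 50.9 and 48.2 CPM in the controls and 76.5, 76.9 and 76.5 CPM after knockdown (0.64, SE 0.05). In DMSO the median of the list was -0.07, with 7 rises and 8 falls, and the test of the difference was lower under thapsigargin for 18 of 22 members and higher for 1, Atf5 (0.56). Over all genes tested it was lower for 17.7% and higher for 17.7%. In DMSO 26.5% of all genes tested fell and 25% rose. Such counts for this list and the lists below stand beside these shares.

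**Figure D2:**
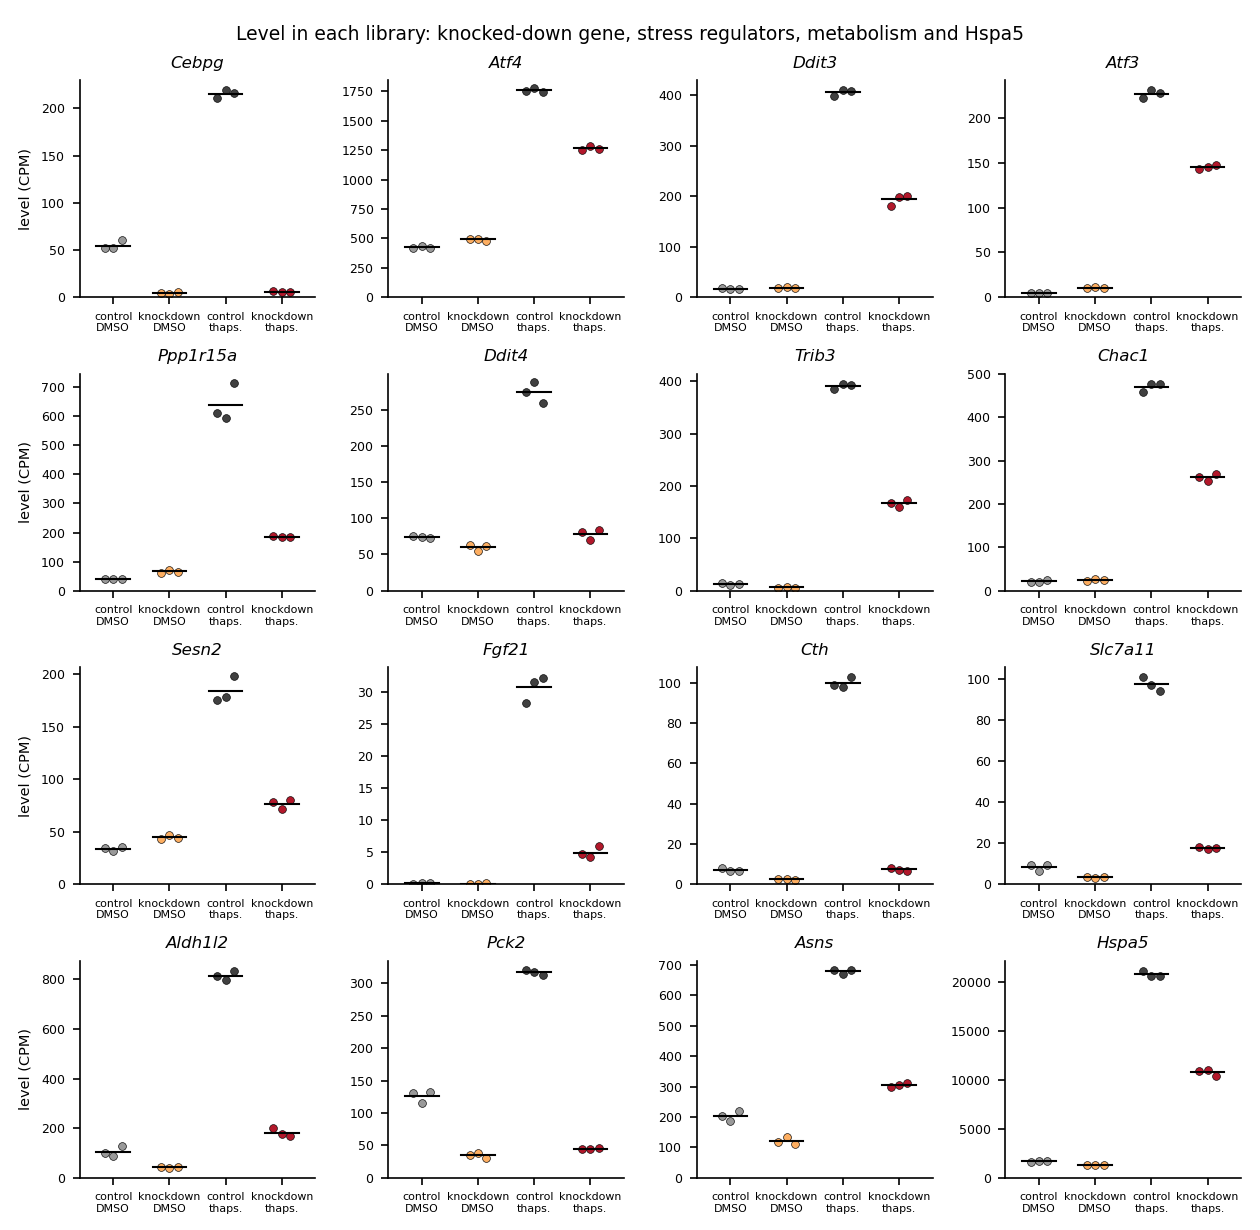
Level in CPM (y axis, from 0) in each of the 12 libraries for Cebpg, 9 stress regulators, 5 genes of amino acid metabolism or import and the chaperone gene Hspa5, by group (x axis). Points are libraries and bars are means of 3. In every panel the 3 knockdown thapsigargin points lie below the 3 control thapsigargin points, for Cth at 6.76 to 8.26 against 97.9 to 103 CPM.

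The composite elements that C/EBP and ATF proteins recognise share the core TGATGNAA, read as TTNCATCA on the other strand. The core was searched on both strands in RefSeq promoter windows of 300 bases (250 before and 50 after the start) on GRCm38.p6, and no other motif was searched. It was present for 1219 of 27025 genes in the table (4.51%), in 3.97% of all windows of that length. Among genes tested here it was present for 336 of 11250 with a window (2.99%), among those that fell by at least 1 in log2 for 45 of 606 (7.43%) and among those that rose by at least 1 for 16 of 527 (3.04%). By list, it was present for 7 of 19 ISR genes (36.8%), 5 of 12 cytosolic aminoacyl-tRNA synthetase genes (41.7%), 4 of 12 asparagine, proline and aminotransferase genes (33.3%) and 3 of 15 amino acid transporter genes (20%). It was found for 0 of 12 serine and one-carbon genes, 0 of 11 sensor genes of the unfolded protein response and 0 of 19 translocation and transport genes, which says only that these letters are not in those windows. These shares are descriptions and were not tested.

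Promoter stretches of 9 genes that fell are printed to show where the core lies in genes the results turn on, 5′ to 3′ on the strand of the gene, with the core in capitals. They are Avil (chr10:127000666-127000725, plus strand, core 17 bases before the start), Pi16 (chr17:29318734-29318793, plus, 122 bases), Pck2 (chr14:55540137-55540196, plus, 103 bases), Fgf21 (chr7:45615596-45615655, minus, 139 bases), Slc7a11 (chr3:50443627-50443705, minus, with cores 66 and 47 bases before the start), Pycr1 (chr11:120643818-120643877, minus, 103 bases), Got1 (chr19:43524674-43524733, minus, 102 bases), Asns (chr6:7693199-7693258, minus, 23 bases) and Nupr1 (chr7:126625547-126625606, minus, 110 bases). Slc7a11 is the one among them whose stretch holds a core on each strand.
Avil: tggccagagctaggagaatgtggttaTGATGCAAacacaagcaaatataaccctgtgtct
Pi16: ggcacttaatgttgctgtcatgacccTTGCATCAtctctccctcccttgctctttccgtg
Pck2: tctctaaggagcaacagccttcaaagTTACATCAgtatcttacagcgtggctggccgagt
Fgf21: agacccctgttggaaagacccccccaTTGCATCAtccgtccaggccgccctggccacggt
Slc7a11: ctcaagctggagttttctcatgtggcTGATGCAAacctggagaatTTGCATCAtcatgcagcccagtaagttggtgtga
Pycr1: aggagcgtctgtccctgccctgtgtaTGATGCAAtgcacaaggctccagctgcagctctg
Got1: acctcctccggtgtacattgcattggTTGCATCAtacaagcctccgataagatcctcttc
Asns: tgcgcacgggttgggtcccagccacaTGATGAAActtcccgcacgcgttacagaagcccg
Nupr1: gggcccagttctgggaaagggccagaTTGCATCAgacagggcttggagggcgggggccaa
The log2 changes of these genes ran from -5.20 for Avil through -2.81 for Pck2 and -1.16 for Asns to -0.35 for Nupr1. The 9 were chosen from a longer set of genes with the core. Among those not printed, Trib3, which fell (-1.23), has its core 14 bases after the start. An amino acid transporter gene with 2 cores in its window did not pass (-0.16).

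In the C/EBP and ATF bZIP family 18 of 26 tested members fell, Cebpg among them, 1 rose and 7 did not pass, with a median of -0.53. With library totals alone 16 fell and 3 rose. The list includes possible partners of C/EBP gamma and ATF4, but not every member is one, and pairing was not tested. Atf6, the membrane-bound sensor and transcription factor, had 491, 489 and 475 CPM in the controls and 194, 180.2 and 181 CPM after knockdown (-1.39, SE 0.04, adjusted p = 3.2e-23). Its relative Atf6b fell by 0.54, Creb3l2, another membrane-bound factor, by 0.79 and the repressor Nfil3 by 0.53 (log2). Cebpb fell from 91.5 ± 15.2 to 55.5 ± 3.52 CPM and Cebpd from 49.9 ± 4.15 to 33.2 ± 2 CPM. Cebpa, a differentiation factor, had 5.63, 6.16 and 7.14 CPM in the controls and 4.88, 5.19 and 4.17 CPM after knockdown, a fall of 0.42 that is much smaller than its fall of 2.62 in DMSO, from 25.2 ± 0.659 to 4.12 ± 0.668 CPM (difference 2.20, SE 0.16, adjusted p = 6.58e-13). The member that rose was Creb3, at 71.4 ± 4.17 and 84.9 ± 4.65 CPM, and the exons of its locus overlap Gba2 and Tln1. Atf2 stood at 103 ± 1.21 and 100.3 ± 2.23 CPM and did not pass (adjusted p = 0.464).

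Of 13 tested sensors and signal transducers of the unfolded protein response, 12 fell and 0 rose, with a median of -0.43. In DMSO 10 fell and 1 rose, with a median of -0.20. The difference was lower under thapsigargin for 8 and higher for 1. Ern1, which encodes IRE1, had 133, 137 and 138 CPM in the controls and 69.8, 62.1 and 61.3 CPM after knockdown (-1.08, SE 0.05, adjusted p = 1.08e-17). Eif2ak3, which encodes PERK, fell from 79.1 ± 0.619 to 58.8 ± 1.08 CPM (-0.43), and the IRE1 target Xbp1 from 631 ± 8.97 to 501 ± 8.34 CPM (-0.33). Xbp1 fell more in DMSO (-0.67), and the difference passed (0.34, SE 0.06). The files count reads per gene and do not show the spliced form of Xbp1. Wfs1, an ER membrane protein, fell by 1.43 and Ppp1r15b, the constitutive counterpart of Ppp1r15a, by 0.74. Eif2s1, which encodes eIF2 alpha, stood at 283 ± 7.67 and 301 ± 11.9 CPM and did not pass (adjusted p = 0.0758).

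Enzymes of amino acid supply formed 3 lists. Of 15 tested genes of asparagine, proline and aminotransferase metabolism, 11 fell, 3 rose and 1 did not pass, with a median of -0.85. Pck2, the mitochondrial enzyme that makes phosphoenolpyruvate, had 320.2, 318 and 313 CPM in the controls and 44.2, 44.9 and 46.2 CPM after knockdown (-2.81, SE 0.06, adjusted p = 2.46e-27). Asns, asparagine synthetase and a classical ATF4 target, had 681, 671 and 684 CPM in the controls and 299, 304 and 310.5 CPM after knockdown (-1.16, SE 0.06). In proline synthesis the first enzyme, Aldh18a1, fell from 538 ± 7.25 to 236 ± 4.38 CPM and Pycr1, which acts last, from 50.1 ± 1.57 to 13.9 ± 0.354 CPM. Got1, the cytosolic aspartate aminotransferase, fell by 1.53 and its mitochondrial counterpart Got2 rose by 0.30. Of the alanine aminotransferases, the mitochondrial form Gpt2 fell from 388 ± 10.6 to 148 ± 4.97 CPM and the cytosolic form Gpt, at 7.81 ± 0.394 and 7.87 ± 0.879 CPM, did not pass. Bcat1, which acts on branched-chain amino acids, fell by 0.85, and Glul, glutamine synthetase, rose from 49.2 ± 0.689 to 66.8 ± 3.88 CPM. Prodh, which breaks proline down, rose by 0.63. The difference from DMSO was lower for 11 of the 15 and higher for 1, Glul (0.69).

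Of 15 genes of serine, glycine and one-carbon metabolism, 9 fell, 5 rose and 1 did not pass, with a median of -0.58. All 3 enzymes of serine synthesis fell. Phgdh, the first, fell from 802 ± 9.64 to 516 ± 16.3 CPM (-0.64), Psat1 had 833, 824 and 816 CPM in the controls and 279.6, 296 and 281 CPM after knockdown (-1.53) and Psph fell from 232 ± 2.92 to 90.2 ± 2.59 CPM (-1.36). The mitochondrial folate enzymes fell as well. Aldh1l2 had 812, 797 and 835 CPM in the controls and 203, 175 and 169.6 CPM after knockdown (-2.16, SE 0.12, adjusted p = 1.86e-07), Shmt2 fell by 1.11, Mthfd2 by 1.21 and Mthfd1l by 1.36 (log2). The cytosolic counterpart of Shmt2, Shmt1, stood at 40.8 ± 1.08 and 38.2 ± 1.47 CPM and did not pass (adjusted p = 0.171), and that of Aldh1l2, Aldh1l1, rose from 0.474 ± 0.256 to 2.34 ± 0.0728 CPM. Gldc, of the glycine cleavage system, rose from 1.88 ± 0.294 to 4.50 ± 0.810 CPM, and Tyms, thymidylate synthase, which is also counted in the S phase list, rose by 0.38. The cytosolic folate enzyme gene Mthfd1 also rose (0.23).

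Cysteine, glutathione and NRF2 genes went both ways. Of 22, 13 fell, 5 rose and 4 did not pass (10 fell and 7 rose with library totals alone), with a median of -0.25 under thapsigargin and 0.20 in DMSO. The difference between the treatments was lower for 13 and higher for 2. Beside Cth, Slc7a11, the cystine importer, fell, with 101, 97.3 and 94.2 CPM in the controls and 18.3, 17.4 and 17.8 CPM after knockdown (-2.45, SE 0.08, adjusted p = 1.22e-18). Cbs, the enzyme that supplies Cth with cystathionine, had a low level at 0.461 ± 0.110 and 0.651 ± 0.161 CPM and did not pass. Gclc, the catalytic subunit of the first step of glutathione synthesis, fell from 140.5 ± 5.84 to 96.2 ± 3.02 CPM, whereas Gss, the second step, rose from 27.9 ± 0.552 to 40.3 ± 1.36 CPM and Ggct, which cleaves gamma-glutamyl residues, from 5.37 ± 0.649 to 11.6 ± 0.277 CPM. Nfe2l2, which encodes NRF2, fell by 0.63, and its target Hmox1, which degrades haem, had 626, 638 and 667 CPM in the controls and 412, 422 and 448 CPM after knockdown. Nqo1, another NRF2 target, stood at 35.2 ± 4.71 and 38.8 ± 1.45 CPM and did not pass (adjusted p = 0.0851). That gene rose with upper quartile scaling, with no filter on low counts, with a replicate block and without control thapsigargin replicate 1. Glutathione peroxidases rose by 0.42 in the case of Gpx1, a call lost without knockdown thapsigargin replicate 2, and did not pass in that of Gpx4 (325 ± 6.88 and 327 ± 11.6 CPM), and smaller rises were those of Osgin1 (0.28) and glutathione reductase, Gsr (0.17).

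Of 20 amino acid transporters, 13 fell, 2 rose and 5 did not pass, with a median of -0.68, or 11 fell and 4 rose with library totals alone. Both chains of the large neutral amino acid exchanger fell, the light chain Slc7a5 from 1366, 1372 and 1462 CPM in the controls to 522, 496 and 502 CPM after knockdown (-1.47, SE 0.05) and the shared heavy chain Slc3a2 from 2066 ± 69.7 to 1078 ± 4.05 CPM (-0.94). Slc6a9, a glycine transporter, had 112, 112 and 123 CPM in the controls and 28.4, 25.9 and 23.7 CPM after knockdown (-2.15). Slc1a5, a glutamine and neutral amino acid transporter, fell from 59.7 ± 2.33 to 18.9 ± 0.907 CPM, the cationic amino acid transporter Slc7a1 from 448 ± 14.2 to 184 ± 6.49 CPM and Slc1a4 from 203 ± 6.12 to 101 ± 0.244 CPM. The 2 that rose were Slc6a6, the taurine transporter, at 130.0 ± 9.59 and 209 ± 15.9 CPM, and the lysosomal transporter gene Slc36a1 at 29.4 ± 2.38 and 42.9 ± 1.51 CPM. Slc7a6 did not pass, at 56.1 ± 0.652 and 58.9 ± 2.18 CPM.

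Enzymes that charge tRNAs were counted by compartment. Of 20 cytosolic aminoacyl-tRNA synthetases, 15 fell, 2 rose and 3 did not pass (median -0.40), while of 17 mitochondrial ones 6 fell, 4 rose and 7 did not pass (median -0.08). With library totals alone 1 mitochondrial member fell and 7 rose (median 0.06), and 14 cytosolic members fell and 4 rose (median -0.27). Eprs, which charges glutamate and proline tRNAs, had 947, 947 and 976 CPM in the controls and 459, 424 and 438 CPM after knockdown (-1.12, SE 0.05). Lars fell by 1.04, Wars by 1.0, Gars by 0.97 and Tars by 0.74 (log2). The 2 cytosolic members that rose were Farsa, from 135 ± 2.26 to 170.4 ± 6.22 CPM, and Mars, from 184 ± 3.44 to 204 ± 7.57 CPM, whose exons overlap Ddit3. Qars did not pass, at 119 ± 0.953 and 125 ± 2.74 CPM. The largest mitochondrial changes were a rise of Mars2 (0.54) and a fall of Nars2 (-0.40). Against DMSO the effect was lower under thapsigargin for 15 of 20 cytosolic members and higher for 0, and among mitochondrial members lower for 0 and higher for 2.

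All 19 ER chaperones and disulphide isomerases fell, with a median of -0.76, and the difference from DMSO, where the median was -0.16, was lower for 18 of 19. Hspa5, which encodes BiP, the main Hsp70 of the ER, had 21110.2, 20537 and 20568 CPM in the controls and 10913, 10946 and 10387 CPM after knockdown (-0.95, SE 0.04, adjusted p = 1.84e-19). Hsp90b1, the ER Hsp90, had 3898, 3740.3 and 3914 CPM in the controls and 1818, 1818 and 1669 CPM after knockdown (-1.12). The groups did not overlap in either gene, but the share of all genes without overlap is not given here. Ero1l, the oxidase that drives disulphide bond formation and a known CHOP target, fell most, from 656, 632 and 671 CPM in the controls to 138, 131 and 135 CPM after knockdown (-2.28, SE 0.05, adjusted p = 2.46e-27), with no change called in DMSO (-0.06, adjusted p = 0.326). Pdia4, a disulphide isomerase, fell from 1884 ± 26.1 to 729 ± 9.57 CPM, Dnajc3, a co-chaperone also called p58IPK, from 1021 ± 5.12 to 406 ± 14.7 CPM and Hyou1 from 2127 ± 39 to 976 ± 17.6 CPM. The lectin chaperones fell less, Calr by 0.52 and Canx by 0.31, and Sil1, a nucleotide exchange factor of BiP, least, from 28.1 ± 0.831 to 23.6 ± 0.947 CPM. The Sil1 call was lost with library totals alone.

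Of 20 tested genes of ER-associated degradation, which extracts and destroys misfolded proteins, 14 fell and 0 rose (median -0.30), or 10 fell and 3 rose with library totals alone. Sel1l, the scaffold of the HRD1 ubiquitin ligase, had 959, 973 and 979.6 CPM in the controls and 279, 262 and 261 CPM after knockdown (-1.86, SE 0.05, adjusted p = 1.38e-25), and the ligase gene Syvn1 itself fell from 716 ± 23.6 to 317 ± 8.90 CPM. Herpud1, a membrane component induced by stress, had 2108, 2108 and 2191 CPM in the controls and 923, 910.1 and 909 CPM after knockdown (-1.23). Edem1, which picks out misfolded glycoproteins, fell from 394 ± 2.10 to 157 ± 6.14 CPM and Derl1 from 632 ± 20.1 to 367 ± 2.41 CPM. Ufd1, a cofactor of the p97 segregase, stood at 113 ± 3.40 and 115 ± 2.67 CPM and did not pass.

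Of 23 genes of translocation and COPII transport 22 fell and 0 rose (median -0.44), or 14 fell and 1 rose with library totals alone. Sec61a1, the translocation channel, had 824, 837 and 842 CPM in the controls and 503, 457 and 462 CPM after knockdown (-0.82), Ssr3 fell from 1361 ± 25.7 to 755 ± 15.4 CPM and the coat gene Sec24d from 568 ± 11.2 to 316 ± 23.5 CPM. Sar1b, a small GTPase of the COPII coat, had 72.5, 73.9 and 65.6 CPM in the controls and 69.2, 73 and 69.8 CPM after knockdown and did not pass. It is the member that rose with library totals alone (0.13).

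Among 18 genes of ER calcium handling, 9 fell, 4 rose and 5 did not pass (median -0.30). Genes for pumps that thapsigargin itself inhibits fell. Atp2a3, which encodes SERCA3, had 53.6, 51.6 and 61.5 CPM in the controls and 10.4, 7.79 and 9.55 CPM after knockdown (-2.58, SE 0.09), and Atp2a2, which encodes SERCA2, had 1431, 1454 and 1415 CPM in the controls and 824, 808 and 764 CPM after knockdown (-0.84, SE 0.04). Itpr3, a calcium release channel, rose from 90.1 ± 1.81 to 125 ± 7.29 CPM, and Stim1, the sensor of an empty store, from 12.8 ± 0.960 to 15.6 ± 0.880 CPM. The plasma membrane channel gene Orai2 (0.31) and Itpr1 (0.19) were the other two that rose, and the Itpr1 call was lost without control thapsigargin replicate 1 or 3 or knockdown thapsigargin replicate 1.

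Sterol genes fell in most cases. Of 23 genes of cholesterol synthesis and uptake 17 fell, 3 rose and 3 did not pass (median -0.64, and -0.29 in DMSO). Hmgcs1, an early enzyme of the pathway, had 83.8, 83.6 and 87.7 CPM in the controls and 33.2, 35.1 and 34.6 CPM after knockdown (-1.31, SE 0.05). Sqle, squalene epoxidase, fell from 190.4 ± 4.31 to 105 ± 1.81 CPM. The synthesis genes Sc5d (0.48) and Mvk (0.25) rose, and Dhcr7 stood at 6.61 ± 0.738 and 6.46 ± 0.648 CPM and did not pass. Among glycolysis and hypoxia genes 14 of 21 fell, 5 rose and 2 did not pass (median -0.17), or 9 fell and 6 rose with library totals alone (median -0.04). Slc2a1, the glucose transporter GLUT1, had 161, 156 and 172 CPM in the controls and 50.5, 50.8 and 50.5 CPM after knockdown (-1.69), the oxygen sensor Egln3 fell by 1.66, Pdk1 by 1.39 and hexokinase Hk2 by 1.07. Gapdh rose from 1371 ± 25.7 to 1587 ± 72.1 CPM, and pyruvate kinase, Pkm (0.35), and hexokinase Hk1 (0.36) also rose.

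Mitochondrial chaperones and proteases gave 8 falls, 3 rises and 1 that did not pass among 12 (median -0.15), or 5 falls and 4 rises with library totals alone (median -0.02). Lonp1, a matrix protease, fell from 452 ± 8.56 to 208 ± 2.17 CPM (-1.12), with no call in DMSO (-0.06, adjusted p = 0.244). The matrix Hsp70 gene Hspa9 fell by 0.57, and the co-chaperonin Hspe1 rose by 0.51, though its exons overlap Hspd1. Of 10 tested mitochondrially encoded genes 3 fell, 1 rose and 6 did not pass (median -0.10), or 2 fell and 2 rose with library totals alone (median 0.04), the rise being that of mt-Nd1 (0.27) and the falls those of mt-Nd5 (-0.31), mt-Co1 (-0.28) and mt-Cytb (-0.14). The mt-Cytb call was lost with library totals alone and without knockdown thapsigargin replicate 1 or 3. Of 20 autophagy genes 10 fell, 4 rose and 6 did not pass (median -0.07), or 7 fell and 8 rose with library totals alone (median 0.06), and the receptor gene Sqstm1 fell from 2537 ± 12.8 to 1968 ± 26.4 CPM. Tfeb, a transcription factor of lysosome genes, rose by 0.62. Of 14 inhibitors of mTOR and AKT signalling 6 fell, 2 rose and 6 did not pass. The 2 that rose were Castor1, an arginine sensor, from 3.05 ± 0.358 to 7 ± 0.400 CPM, and Ddit4l, a relative of Ddit4, from 3.41 ± 0.685 to 10.5 ± 0.752 CPM. The median of that list was -0.07, and with library totals alone 5 fell and 4 rose (median 0.06).

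Cytosolic ribosomal protein genes gave 10 rises, 6 falls and 21 of 37 that did not pass (median 0.06). Rplp0 was one of these, at 2308 ± 52.8 and 2391 ± 70.6 CPM. With library totals alone 24 rose and 1 fell, so no direction is given for the family.

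The 22 p53 targets gave 17 rises and 4 falls, with 1 that did not pass and a median of 0.41. Cdkn1a, the p21 inhibitor of the cell cycle, had 437, 461 and 478 CPM in the controls and 708, 710.3 and 751 CPM after knockdown (0.66, SE 0.04, adjusted p = 1.1e-14). Mdm2, the ubiquitin ligase gene that limits p53, went up from 405 ± 8.43 to 599.8 ± 14.1 CPM, the pro-apoptotic gene Bax from 24.3 ± 0.673 to 39.4 ± 2.94 CPM and Pmaip1, which encodes NOXA, from 39 ± 1.02 to 72.7 ± 7.15 CPM. Rrm2b, a p53-inducible subunit of ribonucleotide reductase, went the other way, with 113, 105 and 122 CPM in the controls and 26.9, 27.8 and 26.3 CPM after knockdown (-2.07, SE 0.07). Bbc3, which encodes PUMA, fell from 31 ± 2.98 to 25.2 ± 1.21 CPM, and Btg2 stood at 71.4 ± 1.42 and 77 ± 4.26 CPM and did not pass (adjusted p = 0.063), though it rose with upper quartile scaling, in a fit of the 6 libraries alone and without knockdown thapsigargin replicate 2. Gadd45a (-0.56) and Sesn1 (-0.37), a relative of Sesn2, fell too. The DMSO median of the list was 0.52, and the difference was lower under thapsigargin for 9 members and higher for 4, beside 17.7% of all genes in each direction. In the BCL2 family, which overlaps this list, 8 of 14 tested members rose and 5 fell (median 0.19), or 9 and 3 with library totals alone. Bok, a pro-apoptotic member, rose from 13.2 ± 0.235 to 33.8 ± 2.52 CPM (1.35), and Bcl2, which opposes cell death, fell from 13.2 ± 0.389 to 8.13 ± 0.711 CPM (-0.70).

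Cytosolic heat shock genes gave 9 rises, 1 fall and 6 that did not pass among 16 (median 0.30, and 0.32 in DMSO). The small heat shock gene Cryab had 42.1, 46.9 and 45.1 CPM in the controls and 106, 118 and 112 CPM after knockdown. Its relative Hspb1 had 128, 131 and 127 CPM in the controls and 228, 249 and 232 CPM after knockdown. Dnajb1, a co-chaperone of the cytosolic Hsp70, rose by 0.68 and the inducible Hspa1b by 0.30, and Hsp90ab1 stood at 3271 ± 47.4 and 3248 ± 46.5 CPM and did not pass. The member that fell was the co-chaperone gene Bag3 (-0.13, adjusted p = 0.044), a call lost with upper quartile scaling, library totals alone, no filter, DESeq2, limma-voom and a fit of the 6 libraries alone. It was also lost without control thapsigargin replicate 3, without knockdown DMSO replicate 1 and without knockdown thapsigargin replicate 2 or 3.

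Most genes of proliferation on these lists rose in stressed knockdown cells. Of 22 genes of S phase and replication 18 rose, 2 fell and 2 did not pass (median 0.51), and of 22 genes of G2 and mitosis 19 rose, 2 fell and 1 did not pass (median 0.36). Ccne1, cyclin E1, had 6.37, 7.44 and 6.27 CPM in the controls and 16.6, 15.8 and 15.5 CPM after knockdown (1.24, SE 0.08). Rrm2, the S phase subunit of ribonucleotide reductase, had 223, 224 and 211 CPM in the controls and 394, 423 and 371 CPM after knockdown (0.85), opposite to Rrm2b. The replicative helicase subunit Mcm5 rose from 72.5 ± 2.39 to 114 ± 3.48 CPM, with no call in DMSO (adjusted p = 1), while the licensing factor Cdt1 fell from 94.4 ± 3.78 to 79.3 ± 2.31 CPM and the helicase subunit gene Mcm2 by 0.13 (log2). The Mcm2 call was lost with upper quartile scaling, library totals alone or no filter, and without control thapsigargin replicate 3 or knockdown thapsigargin replicate 1 or 3. Among mitotic genes Ube2c rose by 0.66, Birc5 by 0.60 and Cdk1 by 0.38, and the checkpoint kinase Bub1b fell by 0.28 and Mki67, the gene of a common marker of cycling cells, by 0.13 (log2). The Mki67 call was lost with library totals alone and without control thapsigargin replicate 3. The DMSO median of S phase genes was 0.08, and the difference was higher under thapsigargin for 15 of 22 and lower for 1. For mitotic genes it was higher for 4 and lower for 2, with 16 that did not pass. Over all genes tested the difference was higher for 17.7% and lower for 17.7%, so nothing is read from the mitotic counts.

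The muscle genes went both ways. Of 18 tested myogenic regulators 8 fell, 4 rose and 6 did not pass (median -0.03), or 7 fell and 6 rose with library totals alone (median 0.11). In DMSO 8 fell and 2 rose (median -0.20), and the difference was higher under thapsigargin for 8 and lower for 4. Myog, which starts terminal differentiation, fell from 6.76, 7.22 and 7.06 CPM in the controls to 1.32, 0.908 and 1.15 CPM after knockdown (-2.63), and Myf5, a factor of proliferating myoblasts, rose from 248, 247 and 259.9 CPM in the controls to 420.5, 451 and 378 CPM after knockdown (0.73). Msc, a repressor of myogenic factors, rose from 0.816 ± 0.0257 to 4.04 ± 0.532 CPM. Of 20 tested sarcomere and fusion genes 11 fell, 5 rose and 4 did not pass (median -0.45). In DMSO 10 fell and 5 rose (median -0.60). The difference was lower under thapsigargin for 2, higher for 0 and not passed for 18. Slow troponin Tnnt1 fell from 2.75 ± 0.370 to 0.314 ± 0.0174 CPM, the muscle pump gene Atp2a1 from 1.92 ± 0.274 to 0.326 ± 0.0804 CPM, embryonic myosin Myh3 from 1.63 ± 0.280 to 0.823 ± 0.179 CPM and desmin, Des, from 784 ± 26.1 to 545 ± 12.5 CPM. In DMSO the log2 changes were -2.73 for Myog, -2.91 for Tnnt1 and -2.43 for Atp2a1, and none of these differences passed. Cardiac actin, Actc1, rose by 1.18, as did the calcium-binding gene Casq2 (0.88) and the troponin genes Tnnc1 (0.50) and Tnnt2 (0.30), beside Acta1. The Tnnc1 call was lost without knockdown thapsigargin replicate 2. Of the 10 myoblast markers 5 rose, 3 fell, Des among them, and 2 did not pass (median 0.26). With library totals alone 7 rose and 2 fell. Beside Myf5 and Msc, the intermediate filament gene Vim rose from 3393 ± 9.72 to 6236 ± 242 CPM. N-cadherin, Cdh2, rose from 35.6 ± 3.09 to 119 ± 6.26 CPM. M-cadherin, Cdh15, stood at 146 ± 6.60 and 154 ± 1.95 CPM and did not pass, as did Myod1.

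Of 27 tested extracellular matrix genes 20 fell, 6 rose and 1 did not pass (median -0.60). In DMSO 16 fell and 6 rose (median -0.39), and the difference was lower under thapsigargin for 11 and higher for 6. Mgp, an inhibitor of calcification, had 38.5, 44.4 and 27.2 CPM in the controls and 6.17, 5.16 and 5.79 CPM after knockdown, and Col6a1, a collagen VI chain, had 168, 164 and 192 CPM in the controls and 46.3, 30.9 and 44.8 CPM after knockdown (-2.10, SE 0.16). In DMSO the log2 changes were -3.61 for Mgp and -1.71 for Col6a1, and neither difference passed. Fibronectin, Fn1, fell from 3649.8 ± 188 to 1934 ± 107 CPM. Thrombospondin 1, Thbs1, had 77.7, 80.3 and 79 CPM in the controls and 305, 357 and 276 CPM after knockdown (1.98), and the basement membrane chain Col4a1 rose from 230.3 ± 35.9 to 415 ± 9.29 CPM. Immediate early genes gave 10 rises and 8 falls among 20 tested (median 0.22), or 12 and 5 with library totals alone. Fosb rose by 2.0, the orphan receptor gene Nr4a1 by 1.55 and the phosphatase gene Dusp1 by 1.19, whereas Egr3 fell by 1.49 and Egr1 by 0.51 (log2).

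Of 32 tested inflammatory and acute phase genes 16 fell, 8 rose and 8 did not pass (median -0.18), or 13 fell and 11 rose with library totals alone (median -0.04). Serum amyloid Saa3 had 97.6, 104 and 94.8 CPM in the controls and 13.3, 7.56 and 14.9 CPM after knockdown (-3.05), the complement gene C3 had 159, 169 and 206 CPM in the controls and 53.3, 32 and 62 CPM after knockdown and Il6 fell from 42.1 ± 1.81 to 16.7 ± 0.159 CPM. The chemokine gene Cxcl12 rose from 13.6, 13.7 and 14.4 CPM in the controls to 65.8, 71.3 and 69.3 CPM after knockdown (2.31, SE 0.06) and Ccl7 from 139 ± 3.66 to 256 ± 24.6 CPM. Ptgs2, the inducible cyclooxygenase, stood at 1824 ± 88 and 2002 ± 132 CPM and did not pass (adjusted p = 0.164), but rose with no filter on low counts, in a fit of the 6 libraries alone and without control DMSO replicate 2 or 3, which enter the shared estimate of the spread. Of 25 interferon response genes 17 fell, 1 rose and 7 did not pass (median -0.86, and -0.38 in DMSO), or 15 fell and 2 rose with library totals alone. Ifi44 had 7.69, 8.11 and 9.42 CPM in the controls and 0.441, 0.843 and 0.735 CPM after knockdown, Irf7, a transcription factor of the response, fell from 5.57 ± 0.135 to 2.13 ± 0.268 CPM and Usp18 from 3.70 ± 0.966 to 1.14 ± 0.273 CPM. The fall of Mx2 (-0.89, adjusted p = 0.000584) was lost with DESeq2 (adjusted p = 0.0681). Ifit2 rose by 0.20 (adjusted p = 0.0308), a call lost with no filter on low counts, without control thapsigargin replicate 1 or 2 and without knockdown thapsigargin replicate 3.

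The question whether the knockdown acts differently under stress was asked by the difference of the knockdown effects, thapsigargin minus DMSO. The contrasts share no library. In DMSO 4199 genes fell (26.5%) and 3955 rose (25%). The difference passed for 2804 genes that were lower under thapsigargin (17.7%) and 2794 that were higher (17.7%). With library totals alone it was 1684 lower and 5205 higher. Of genes that fell here, 2490 also fell in DMSO, 1580 did not pass there and 425 rose. Of those that rose here, 2447 also rose in DMSO, 1679 did not pass there and 389 fell. Among the 943 that fell by at least 1 in log2, the difference was lower for 436, higher for 33 and not passed for 474, and among the 804 that rose by at least 1 it was higher for 225, lower for 48 and not passed for 531. These counts start from genes selected on the thapsigargin contrast, which also enters the difference, so they are descriptions.

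Genes whose knockdown effect was lowest under thapsigargin against DMSO were Avil (-4.88, SE 0.34), Car6 (-4.29), Icam1 (-4.23), Als2cl (-4.00), Cdsn (-3.93) and Lcn2 (-3.88). Icam1, an adhesion molecule, had 1, 0 and 1 reads in the control DMSO libraries and 2, 8 and 8 in the knockdown DMSO libraries, and Car6 had 2, 3 and 0 reads in the latter, so the size of both differences rests on few reads. Lcn2, an iron-sequestering acute phase protein, had 9.14, 8.48 and 10.3 CPM in control thapsigargin and 1.76, 1.43 and 1.29 CPM in knockdown thapsigargin libraries. In DMSO Lcn2 had 12, 3 and 8 reads in control and 14, 22 and 17 in knockdown libraries. Als2cl had 20, 10 and 18 reads in control DMSO libraries, so these differences rest on few reads too. The highest differences were those of Lrrc15 (2.52), Cebpa (2.20), Cxcl12 (2.11), Csf2rb (2.06), Pxylp1 (2.04) and the chemokine receptor gene Cxcr6 (1.87). Lrrc15 fell with the knockdown in DMSO, from 5.10 ± 0.334 to 1.01 ± 0.122 CPM, and stood at 0.607 ± 0.168 and 0.676 ± 0.0592 CPM under thapsigargin. Pxylp1 stood at 74.3 ± 3.69 and 61.8 ± 5.96 CPM in DMSO and rose under thapsigargin from 7.24, 7.75 and 6.61 CPM in the controls to 24.4, 25 and 24.8 CPM after knockdown.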

How the data were processed

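RNA-seq libraries were made from poly(A) mRNA, per the labels' protocols. The deposited files hold raw counts of reads per gene, 1 file per library, made by the authors with Trim Galore, STAR 2.5.3a, bedtools 2.31.0 and DESeq2 on mm10 (hg38 is also listed), per the submitters' processing notes. The counter, annotation release and strand setting are not given in the sources used here. The 5 entries that name no gene held 13.32% to 14.61% of reads and were left out of library sizes and tests.

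Of 53801 gene IDs, 53706 matched GENCODE vM21 (GRCm38), which gave names, positions and exon overlaps. All 12 libraries were fitted in 4 groups with edgeR 4.0.16 (R 4.3.3): filterByExpr left 15828 genes and 37973 were not tested, with TMM scaling and a robust quasi-likelihood fit. Contrasts were knockdown minus control under thapsigargin, the same in DMSO, and their difference, with Benjamini-Hochberg adjustment over all genes tested and a threshold of 0.05. Standard errors are approximate, taken as the log2 change over the root of F. Means are given ± SD with n = 3. The script was tested on simulated data.

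The comparison and the gene lists were chosen with earlier results of these data known. Genes named are the 12 that fell and the 12 that rose most among protein-coding genes called with at least 5 CPM in 1 group and no overlap between the libraries, the 6 lowest and 6 highest differences, and, per list, the largest changes, members of central role and members that did not pass. Some members were named to account for small counts, after their values were seen, and some members of the lists are not reported here. Since strand is not given, reads shared with an overlapping gene cannot be told apart from those of Als2cl, Atf5, Ppp1r15a, Cebpb, Cebpd, Psph, Shmt2, Shmt1, Gss, Slc6a9, Syvn1, Ufd1, Cryab, Ube2c, Atp2a1, Fn1, Col4a1, Dusp1, Irf7, Gapdh, Sqstm1, Nefm, mt-Nd5 and the genes so named in the text, and others, Cebpg among them, overlap predicted or non-coding genes. Reads of Hspa1b can be shared with a close copy. Alternatives were RLE, upper quartile or no scaling beyond library totals, other count filters, DESeq2 1.42.0, limma-voom (limma 3.58.1), a replicate block, a fit of the groups compared alone, other thresholds and each library left out.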

Additional observations from a re-analysis of the deposited data

Results flagged for a closer look

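For 27 genes named above, the knockdown effect passed in edgeR's quasi-likelihood test both under thapsigargin and in DMSO, with opposite signs, and the difference between both effects passed too. Values are that difference, thapsigargin minus DMSO, in log2. Each gene was selected because both calls differ in sign, so the values are descriptions. Genes with an opposite sign that did not pass in one of the treatments are not among them. Among stress regulators the difference was -2.51 for Ppp1r15a, -1.82 for Atf3, -1.66 for Sesn2, -1.64 for Gdf15 and -0.68 for Atf4. Among genes of amino acid, glutathione and haem metabolism it was -2.0 for Hmox1, -1.05 for Phgdh, -0.74 for Gclc and 0.69 for Glul. The lectin chaperone genes had -0.70 (Calr) and -0.56 (Canx). Immune genes had -4.23 (Icam1), -3.88 (Lcn2), -1.62 (Il6) and 2.06 (Csf2rb), of which Icam1 and Lcn2 had few reads in DMSO. Mitochondrially encoded genes had -0.53 (mt-Nd5), -0.39 (mt-Co1) and -0.38 (mt-Cytb). The remaining values were -4.00 for Als2cl, 2.04 for Pxylp1, -1.44 for the endothelial marker Tek, -1.41 for Hk2, -1.10 for Gadd45a, -0.68 for Sqstm1, -0.40 for Bub1b, -0.40 for Bag3 and 0.55 for Mvk.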

How the results depend on the processing

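Against a fold of 1.2 the calls numbered 4938 under thapsigargin, 3672 in DMSO and 2509 for the difference, in place of 9010, 8154 and 5598. Under the other settings that keep all libraries, the count under thapsigargin ran from 7477 (adjusted p under 0.01) to 9485 (library totals alone), with 8662 in DESeq2. With each library left out in turn the counts were 8314 to 9219 under thapsigargin, 7338 to 8283 in DMSO, 5062 to 5446 for the difference and 1726 to 1857 for changes of at least 1 in log2, and Cebpg stood at -5.31 to -5.20. With library totals alone 66.6% of calls under thapsigargin were rises in place of 50.1%, 75.6% of those for the difference were higher in place of 49.9%, and changes of at least 1 split into 1081 rises and 768 falls. The signs of Sar1b (0.13), Hsp90ab1 (0.12), Bag3 (0.01), Mcm2 (0) and Mki67 (0) turned with that scaling. Of 234 genes named beside Cebpg, 46 changed their call in at least 1 of 22 alternatives, most often against a fold of 1.2, where 32 calls were lost. Same-numbered replicates did not deviate together (correlations of -0.02, 0.05 and 0.06), and a replicate block gave 9110 calls under thapsigargin, 8280 in DMSO and 5771 for the difference. Depth limits genes with few reads, such as Icam1 in DMSO.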
